A study of Mus musculus and Ictidomys tridecemlineatus with 36 samples.

Results

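The data are the 14069 peaks of histone H3 trimethylated at lysine 4 (H3K4me3) that were called in mouse retina at postnatal day 2 (P2) against an IgG control. All peaks of the list were used, and they are a subset of 246656 peaks in 5 mouse lists, the others being those for H3K27ac, H3K4me1, Otx2, and Neurod1. The study compared the mouse, with a retina of mostly rods, with the 13-lined ground squirrel (13LGS), with a retina of mostly cones. Chromatin was profiled by CUT&RUN, in which a nuclease tethered to an antibody cuts out the DNA around a histone mark or a bound protein and the released fragments are sequenced. H3K4me3 was measured in 2 mouse libraries and IgG, an antibody with no chromatin target, in 2. Each replicate was a pool of retinas from 3 mice, and 385000 nuclei went into each reaction. The labels name no genotype, allele, or treatment for these animals, and the retinas were used whole. In a whole tissue, fewer cells of a type and less mark per cell cannot be told apart. The 5 mouse lists were all called against the same IgG libraries. Both H3K4me3 libraries were pooled before the peaks were called, so each peak has 1 value, no spread between replicates can be computed, and no difference was tested.

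H3K4me3 is placed by the SET1 and MLL methyltransferases and marks the starts of genes, mainly where the promoter lies in a CpG island. Most cells carry a narrow peak of the mark at active and poised genes, while broad stretches of it are known at genes that set a cell's identity. At P2 the mouse retina still holds dividing progenitors, whose late divisions give rods, bipolar cells, and Müller glia. These progenitors lie next to cones, ganglion cells, and horizontal cells born before birth, and amacrine cells born before and after birth.

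The first set of sequences shows why CpG content is followed below: for 7 genes, the 150 bases before the transcription start site (TSS) are printed 5′ to 3′ on the gene's strand in GRCm38, with every CpG in capitals. These stretches hold no annotated exon.
*Cdkn1b*, under the peak that ranks 3 by fold, chr6:134920251-134920400, strand plus: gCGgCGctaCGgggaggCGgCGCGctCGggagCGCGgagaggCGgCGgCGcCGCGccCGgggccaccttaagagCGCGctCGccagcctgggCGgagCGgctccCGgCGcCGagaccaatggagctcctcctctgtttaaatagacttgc
*Casz1*, under the peak that ranks 5 by fold, chr4:148804279-148804428, strand plus: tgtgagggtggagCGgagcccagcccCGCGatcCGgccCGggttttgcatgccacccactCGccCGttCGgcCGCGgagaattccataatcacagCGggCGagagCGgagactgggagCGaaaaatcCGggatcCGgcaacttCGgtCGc
*Pax6*, under the peak that ranks 2 by width, chr2:105668750-105668899, strand plus: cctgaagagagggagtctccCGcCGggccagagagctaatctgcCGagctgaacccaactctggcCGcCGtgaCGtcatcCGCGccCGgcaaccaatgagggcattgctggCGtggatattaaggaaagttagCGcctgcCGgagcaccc
*Crx*, under a peak, chr7:15879969-15880118, strand minus: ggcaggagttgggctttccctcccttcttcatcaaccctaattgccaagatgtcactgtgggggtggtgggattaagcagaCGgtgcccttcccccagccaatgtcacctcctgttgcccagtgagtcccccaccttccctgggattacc
*Nrl*, under a peak, chr14:55524982-55525131, strand minus: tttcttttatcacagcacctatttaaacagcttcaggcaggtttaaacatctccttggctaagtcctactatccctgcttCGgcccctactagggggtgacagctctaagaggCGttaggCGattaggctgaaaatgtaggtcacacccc
*Hoxa4*, no peak, chr6:52191754-52191903, strand minus: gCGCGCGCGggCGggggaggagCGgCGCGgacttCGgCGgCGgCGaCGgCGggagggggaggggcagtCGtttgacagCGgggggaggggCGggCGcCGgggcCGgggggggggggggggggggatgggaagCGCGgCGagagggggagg
*Alb*, no peak, chr5:90460747-90460896, strand plus: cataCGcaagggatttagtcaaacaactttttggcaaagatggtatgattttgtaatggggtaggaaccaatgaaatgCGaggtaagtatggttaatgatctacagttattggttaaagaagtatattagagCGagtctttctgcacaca
*Cdkn1b* holds 23 CpGs in this stretch, *Casz1* 18, and *Pax6* 12. *Hoxa4*, which has no peak, holds 23, as many as *Cdkn1b*, whereas *Crx* holds 1 and *Nrl* 3 under their peaks and *Alb* holds 3 without a peak. The second set is 4 of the 7 mature microRNAs of RefSeq (GRCm38.p6) that lie under the widest peak and under the peak that ranks 14 by width, with the seed, bases 2 to 8, in capitals. Both arms of *Mir9-2* and the 5p arms of *Mir96* and *Mir183* are shown.
miR-9-5p, chr13:83738821-83738843, strand plus: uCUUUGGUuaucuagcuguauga
miR-9-3p, chr13:83738858-83738879, strand plus: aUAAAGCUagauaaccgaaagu
miR-96-5p, chr6:30169506-30169528, strand minus: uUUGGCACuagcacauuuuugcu
miR-183-5p, chr6:30169711-30169732, strand minus: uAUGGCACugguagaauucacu
The third set is the transfer RNA (tRNA) genes under the strongest and the next strongest tRNA peak outside promoters, with the letters GGTTCNA of the internal promoter of RNA polymerase III (the B box) in capitals.
tRNA-Ala, chr13:21222586-21222657, strand plus: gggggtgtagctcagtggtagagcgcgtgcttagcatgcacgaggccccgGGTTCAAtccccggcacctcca
tRNA-Leu, chr13:21200204-21200308, strand plus: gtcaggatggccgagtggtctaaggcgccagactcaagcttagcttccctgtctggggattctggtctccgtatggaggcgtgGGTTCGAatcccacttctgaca

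The fold of a peak is the pileup of H3K4me3 fragments at its summit over the local IgG level, and the median fold was 13.5 (95% interval of the median, 13.2 to 13.7; n = 14069 peaks). Folds ran from 1.63 to 159, with 5% of peaks below 3.14 and 5% above 43.7. Widths ran from 200 to 27099 bp with a median of 1338 bp (1323 to 1354), and 154 peaks, or 1.09%, were wider than 5 kb. Fold and width rose together across peaks (Spearman's correlation = 0.79, n = 14069), but both come from the same pooled fragments, so this is a description of the list. Of the 100 peaks with the highest fold, 28 were among the 100 widest. The least significant peak lay just past the threshold of q = 0.05 used for calling.

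The fragment pileup at each summit could be recovered from fold and p-value. It ranged from 9 to 817 fragments with a median of 83, and 13.1% of the summits held under 20. The local IgG level is the expected count used in peak calling, not a count of IgG fragments, and 264 peaks shared its lowest value, 2.24. Its median was 4.92 and its highest value 163, at the peak of *Sfi1*, which also had the lowest fold of the list. The intervals printed beside single folds below come from exact 95% Poisson intervals of the summit count, with the IgG level held fixed. They cover counting error of the H3K4me3 fragments only. Error in the IgG level is left out, so the folds are less certain than these intervals show.

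**Figure D1:**
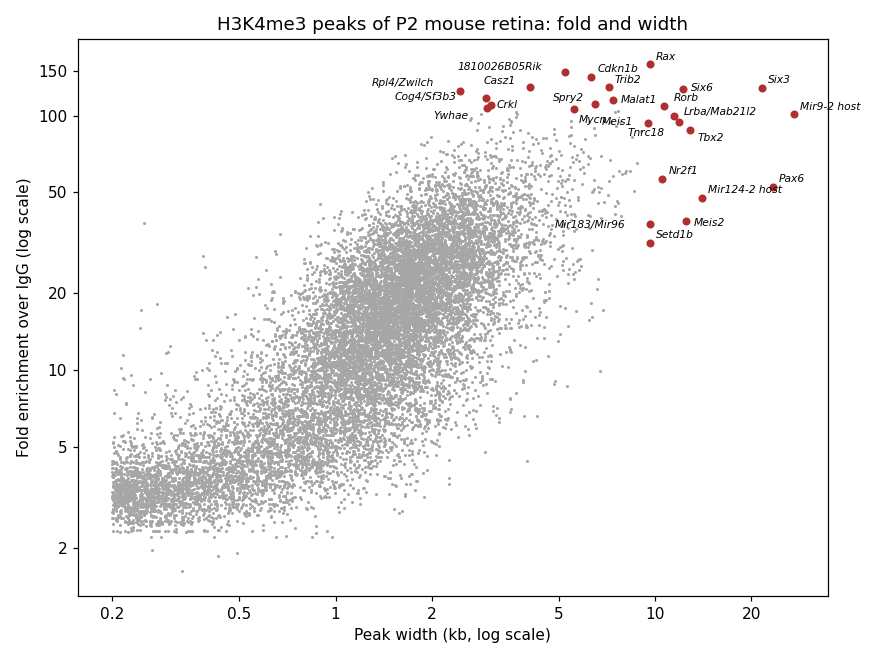
Each grey point is 1 of the 14069 H3K4me3 peaks, with its width in kb on the x axis and its fold enrichment over IgG on the y axis, both on log scales. Red points are the 15 peaks of highest fold and the 15 widest, named by their genes; *Rax*, *Six3*, *Six6*, and *Rorb* belong to both sets and lie in the upper right.

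The strongest peak lay over *Rax*, the homeobox gene that specifies the eye field and maintains retinal progenitors. Its fold was 159 (149 to 171) over 817 fragments, and it spanned 9622 bp (GRCm38, chr18:65930757-65940378). *Six3* and *Six6*, homeobox genes of the eye field, had folds of 129 (119 to 139) and 127 (118 to 137). *Cdkn1b*, which encodes the cyclin-dependent kinase inhibitor p27Kip1, had a fold of 142 (131 to 154), and *Mycn*, a driver of progenitor growth, had a fold of 106 (97.8 to 115). Regulators of retinal development were thus joined by growth control genes at the head of the list. *Trib2*, a pseudokinase gene, and *Casz1*, a zinc finger transcription factor of retinal progenitors, both had folds of 129, with intervals of 119 to 140. *Rorb*, a nuclear receptor needed for rod and amacrine development, had a fold of 110 (102 to 117), and *Spry2*, an antagonist of receptor tyrosine kinase signalling, had a fold of 112 (103 to 121).

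Genes used by all cells were also among the 15. A peak shared by *Rpl4*, a ribosomal protein gene, and *Zwilch*, a kinetochore gene, had a fold of 126 (116 to 136), and another shared by *Cog4*, of the Golgi, and *Sf3b3*, of the spliceosome, had a fold of 117 (107 to 128). *Crkl*, an adaptor protein gene, and *Ywhae*, a 14-3-3 gene, had folds of 110 and 107. A pair of the 15 peaks covered no protein-coding TSS. They lay over the noncoding genes 1810026B05Rik, with a fold of 149 (137 to 162), and *Malat1*, the abundant nuclear RNA, with a fold of 115 (107 to 124). The intervals of neighbours in this ranking overlap, so their order is not fixed by the counts.

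The widest peaks were led by a microRNA host gene and by eye field genes. The widest of all, 27.1 kb (chr13:83714948-83742046), covered C130071C03Rik, the host of *Mir9-2*, whose product miR-9 is a neural microRNA, and had a fold of 101 (92.5 to 111). *Pax6*, the homeobox and paired box gene at the top of eye development, lay under a peak of 23.3 kb (chr2:105666506-105689777) with a fold of 52.4 (47.3 to 58.0). *Six3* lay under 21.6 kb (chr17:85607524-85629086). The host gene of *Mir124a-2*, another neural microRNA, lay under 14.0 kb (chr3:17783247-17797224) with a fold of 47.5 (43.1 to 52.2). The peak that ranks 14, of 9.62 kb (chr6:30169056-30178674), held *Mir183* and *Mir96*, microRNAs of sensory cells, with a fold of 37.6 (32.8 to 42.9).

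Transcription factor genes made up most of the remaining wide peaks. *Tbx2*, a T-box gene of the dorsal eye, had 12.8 kb and a fold of 87.7. *Meis2* and *Meis1*, homeobox genes of retinal progenitors, had 12.5 kb and 9.46 kb with folds of 38.4 and 93.4. *Six6* had 12.2 kb, *Rorb* 10.7 kb, *Nr2f1*, a nuclear receptor gene of retinal patterning, 10.5 kb, and *Rax* 9.62 kb. *Mab21l2*, a gene required for eye growth that sits inside *Lrba*, lay under 11.5 kb with a fold of 99.3 (90.4 to 109). *Tnrc18* had 11.9 kb with a fold of 94.1, and *Setd1b*, itself a gene for an H3K4 methyltransferase, had 9.63 kb with a fold of 31.7 (28.1 to 35.6), the lowest of the 15. Of the 15 widest, 4 were also among the 15 of highest fold.

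Some domains were split by the peak caller. When peaks within 500 bp were joined, 13477 domains remained, and *Otx2*, the homeobox gene that starts the photoreceptor programme, gained a domain of 12.3 kb from 4 peaks. *Tfap2a*, an amacrine cell factor, gained 12.2 kb from 5 peaks with a highest fold of 12.5, so its domain was as wide as that of *Otx2* at a fold of 64.9 but far weaker. *Tbx2* reached 16.0 kb from 3 peaks, and *Meis1* 13.7 kb from 2.

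The wide domains differed in how far other marks covered them. H3K27ac, the acetylation of active promoters and enhancers, covered from 0% to 98.5% of the 15 widest peaks, with a median of 62.5%. It covered 91.6% of the *Mir9-2* host domain, 84.8% of the *Pax6* domain, and 88.6% of the *Six3* domain. Otx2, the photoreceptor and bipolar cell factor, had 18 separate peaks inside the first, 12 inside the second, and 6 inside the third. Neurod1, a proneural basic helix-loop-helix factor, had none in these 3 and 2 each in the *Mir124a-2* and *Mir183* domains. H3K27ac covered 8.89% of the *Mir183* domain, 41.4% of *Nr2f1*, 43.0% of *Rax*, and 44.3% of *Setd1b*. *Meis2* was the only one of the 15 widest peaks without an H3K27ac peak, although H3K4me1 covered 68.2% of it.

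**Figure D2:**
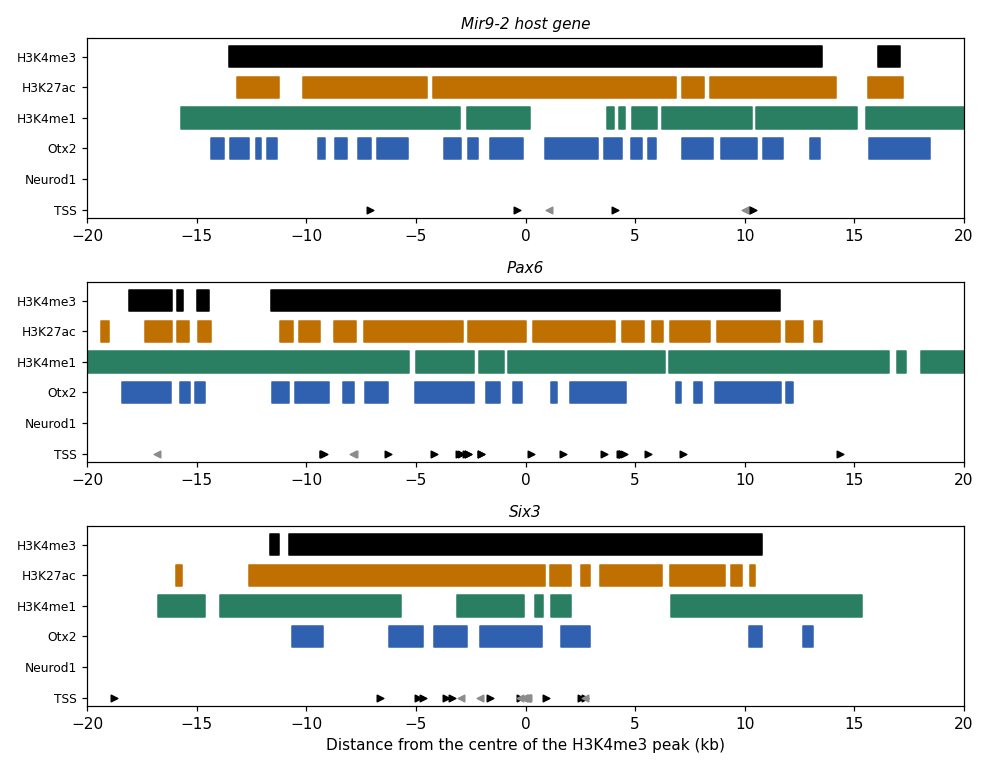
Peaks of the 5 mouse lists around 3 of the widest H3K4me3 peaks, with the distance in kb from the centre of the H3K4me3 peak on the x axis and 1 row per list; arrowheads in the lowest row are annotated TSSs (black, plus strand; grey, minus strand). The *Mir9-2* host domain holds 18 Otx2 peaks, the *Pax6* domain 12, and the *Six3* domain 6, and the Neurod1 row is empty in all 3.

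Most of the list lay at gene starts. Of the 14069 peaks, 10712 (76.1%; 95% Wilson interval, 75.4 to 76.8) covered the TSS of a protein-coding transcript of GENCODE M21, and a further 639 covered only the TSS of another gene type. Peaks over protein-coding TSSs had a median fold of 17.3 and a median width of 1559 bp. Peaks over other TSSs had 6.95 and 899 bp, and the 860 peaks over 5 kb from every TSS had 3.98 and 402 bp. Of the summits of these 860 peaks, 56.0% were intergenic, 36.9% in introns, and 7.09% in exons.

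The peaks leaned into the genes. At the 1761 peaks that covered exactly 1 annotated TSS, the median summit lay 189 bp downstream of it, and 85.7% of the summits were downstream. The peak reached a median of 937 bp into the gene and 346 bp before it. A summit 100 to 400 bp downstream of the TSS, where the first nucleosomes of the gene lie, was found in 50.9% of these peaks, and one at the same distance upstream in 8.12%. Peaks over 2 protein-coding genes numbered 1152, with a median fold of 22.03, against 16.5 for the 9524 peaks over 1 gene. In 841 of the 1152 (73.0%) the genes were transcribed away from each other, as are *Rpl4* and *Zwilch*.

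**Figure D3:**
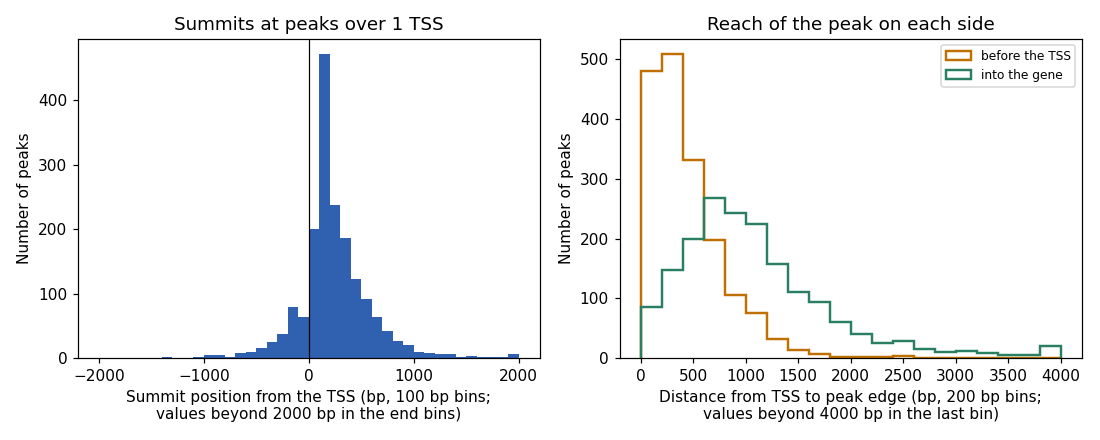
Both panels show the 1761 H3K4me3 peaks that cover exactly 1 TSS and count peaks on the y axis. The left panel places the summit relative to the TSS in bp, positive into the gene, and the right panel gives the distance in bp from the TSS to either edge of the peak; the median summit lies at 189 bp and the reach is 937 bp into the gene against 346 bp before it.

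Of 21853 protein-coding genes, 11431 (52.3%; 51.6 to 53.0) had a peak over a TSS, and this share is the background for the gene lists below. Only 3.99% of the genes with a peak had 2 separate peaks over different TSSs, and 24 had 3 or more. *Tcf4*, the E-protein partner of proneural factors, had 5, the most of any gene. Across the autosomes and X, peaks per Mb followed protein-coding genes per Mb (Spearman's correlation = 0.95, n = 20 chromosomes). Chromosome 11 held the most, 9.16 per Mb, and X the fewest of these 20, 2.87 per Mb. The share of genes with a peak was highest on chromosome 12, at 66.2%, and on autosomes lowest on chromosome 7, at 42.0%. Chromosome 7 carries 397 olfactory and vomeronasal receptor genes, and without them its share was 52.3%.

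CpG content split the promoters. A window of 501 bp was called CpG-rich when its GC content was at least 50% and its ratio of observed to expected CpGs above 0.6. Each gene was given the TSS shared by most of its annotated transcripts. Of 10516 genes with a CpG-rich window at this TSS, 85.6% (84.9 to 86.3) had a peak there, and of 11337 with a CpG-poor window, 12.1% (11.5 to 12.7). The median fold of the peaks was 19.4 at the CpG-rich starts and 13.5 at the CpG-poor ones. Around the summit itself, 71.0% of all peaks were CpG-rich. This share was 85.5% in the highest of 5 equal groups by fold, but lower at the very head of the list. There, 64 of the 100 peaks of highest fold and 53 of the 100 widest had a CpG-rich summit. The summits of *Rax*, *Six3*, *Six6*, *Pax6*, and *Rorb* were not CpG-rich. A summit can lie away from the TSS, so this is not a value for the promoter. The window at the *Pax6* TSS used above was CpG-rich, with 59.3% GC and a ratio of 0.66. Of the 20 progenitor and eye field genes listed below, 14 had a CpG-rich start.

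The other lists were met by different shares of the peaks. H3K4me1, which flanks promoters and marks enhancers, overlapped 88.1% of H3K4me3 peaks, Otx2 78.6%, H3K27ac 29.0%, and Neurod1 8.20%. Read from the other side, 43.3% of the Otx2 peaks, 25.6% of the Neurod1 peaks, 12.1% of the H3K4me1 peaks, and 7.57% of the H3K27ac peaks touched H3K4me3. The lists differ in size, from 4744 Neurod1 peaks to 135798 H3K4me1 peaks, so these shares cannot be ranked as strengths of association. They differ in libraries too: those for mouse Otx2 were made with antibodies of R&D Systems and Atlas, and only Otx2 and Neurod1 had technical replicates. With the 4000 strongest peaks of each other list, the shares were 3.36% for H3K4me1, 17.3% for Otx2, 4.72% for H3K27ac, and 6.71% for Neurod1. At a −log10 q of at least 5 in both lists, H3K27ac overlapped 16.9% of the peaks. The median fold of the H3K4me3 peaks, 13.5, stood beside 3.36 for H3K27ac and 4.25 for H3K4me1, and the H3K4me3 peaks covered 20.97 Mb beside 44.0 Mb and 177 Mb.

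These shares were higher among the strongest peaks than among the weakest. Of the 5 equal groups into which the list was cut by fold, the lowest had folds of 1.63 to 4.92, and in it 25.1% of the peaks covered a protein-coding TSS, 36.8% had a CpG-rich summit, 45.0% met an Otx2 peak, and 19.8% an H3K27ac peak. In the highest group, with folds from 26.2 up, the shares were 97.3%, 85.5%, 96.8%, and 50.6%. The weakest group was also narrow, with a median of 383 bp against 2259 bp, so a wide peak had more bases in which to meet another. TSS peaks with H3K27ac had a median fold of 23.6 and 1925 bp, and those without had 14.998 and 1430 bp. Of the 100 peaks of highest fold, 86 carried H3K27ac and 99 Otx2.

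**Figure D4:**
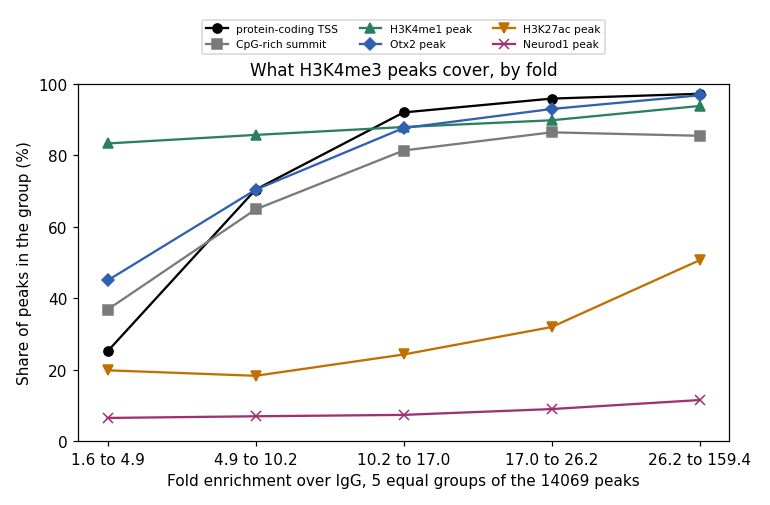
The x axis gives the fold ranges of the 5 equal groups of the H3K4me3 list and the y axis the share of peaks in each group, in percent, that cover a protein-coding TSS, have a CpG-rich summit, or overlap a peak of another list. TSS and Otx2 shares rise from 25.1% and 45.0% to 97.3% and 96.8%, H3K27ac stays near 20% in the lowest 2 groups and reaches 50.6% in the highest, and H3K4me1 is above 83% throughout.

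Gene lists were read against the 52.3% of all protein-coding genes with a peak, and against a median fold of 18.3 and a median width of 1621 bp for the strongest peak of each such gene. Members were chosen by name or by family with earlier results of these data known, and the counts carry no test. The retinal lists fell into those covered in full, those covered in part, and those nearly empty.

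All 20 progenitor and eye field genes had a peak, with a median fold of 47.7 and a median width of 6522 bp, and 13 of them were among the 100 widest peaks. Besides the genes above, *Lhx2*, a homeobox gene of the optic vesicle, had a fold of 82.2 (75.3 to 89.6) over 8442 bp, and *Sox2*, which maintains neural progenitors, had 55.1 (49.1 to 61.7) over 7167 bp. *Mki67*, a gene of dividing cells, had 72.9 (64.3 to 82.2). The lowest of the list was *Foxn4*, the factor for amacrine and horizontal cell fate, at 9.49 (7.12 to 12.4). Peaks wider than 5 kb lay over 13 of the 20 genes, against 1.34% of all genes with a peak.

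All 14 neurogenic genes had a peak as well, with a median fold of 29.7. *Sox4*, a gene of newborn neurons, was highest at 94.1 (85.4 to 103), and its relative *Sox11* was widest at 6766 bp with a fold of 69.2. *Atoh7*, the proneural gene for ganglion cells, was lowest at 9.22 (6.93 to 12.03). Neurod1 peaks lay under 7 of the 14, against 8.4% of all genes with a peak, among them the Notch ligand genes *Dll1*, *Dll3*, and *Dll4*. The 8.4% is not matched for width, and the neurogenic peaks had a median width of 3796.5 bp. Neurod1 met 14.5% of the widest of 5 equal groups of the list by width and 34% of the 100 widest peaks.

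Of 13 photoreceptor transcription factor genes, 12 had a peak and *Esrrb*, a late rod factor, had none. *Otx2* had a fold of 64.9 (58.3 to 72.1) over 8796 bp, *Prdm1*, which separates photoreceptor from bipolar fate, 60.4 (53.9 to 67.6) over 7726 bp, and *Crx*, the factor for photoreceptor maturation, 46.3 (41.2 to 51.9) over 7596 bp. *Nrl*, which commits a photoreceptor to the rod fate, stood at 24.9 (20.7 to 29.6) over 5376 bp. Its target *Nr2e3* stood at 12.3 (9.68 to 15.5), a separate interval when the IgG level is held fixed. Among factors of cone development, *Thrb*, the thyroid hormone receptor gene, had 14.3 (11.5 to 17.7) over 84 fragments, while *Rxrg* had 3.98 (2.47 to 6.10) and *Sall3* 2.75 (1.71 to 4.22), both over 19 fragments.

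The genes of the light response were mostly without the mark, and 14 of the 15 rod and 11 of the 12 cone genes had CpG-poor starts, for which 12.1% of all genes had a peak. Of 15 rod phototransduction genes, 3 had a peak. Among them were *Gnb1*, whose G protein subunit is used in many cell types, at 88.1 (79.5 to 97.4), and *Pde6b*, a subunit of the rod phosphodiesterase, at 6.03 (4.18 to 8.43). Of 12 cone phototransduction genes, *Gnb3* at 5.90 (4.31 to 7.90) and *Slc24a2* at 5.06 (3.31 to 7.42) had a peak, and both cone opsin genes, *Opn1sw* and *Opn1mw*, had none.

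Of 16 Müller glia genes, 14 had a peak, with a median fold of 34.6, led by *Dkk3* at 62.4 (55.7 to 69.7) and by *Nfib*, a factor of late progenitors, at 6398 bp. Many of these genes are also used by progenitors. *Aqp4* and *Clu*, genes of mature glia, had no peak, and *Rlbp1*, the retinoid binding protein of mature Müller glia, had a fold of 2.98 (1.83 to 4.62) over 298 bp, the narrowest of the list. Of 16 amacrine and horizontal cell genes, 10 had a peak, with a median fold of 13.2 and a median width of 3560 bp. All 10 were wider than the median gene, but 6 of the 10 had a fold below it. *Prox1*, a factor of horizontal and amacrine cells, had the highest fold, 41.4 (36.9 to 46.4), and *Tfap2b*, an amacrine factor, had a peak of 6694 bp with a fold of 9.94 (7.41 to 13.1).

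Peaks of bipolar and ganglion cell genes had low folds. CpG-poor starts were held by 9 of the 14 bipolar cell genes and 6 of the 14 ganglion cell genes. Of 14 bipolar cell genes, 5 had a peak, a share of 35.7% beside the background of 52.3%, from *Otop3* at 3.21 (1.97 to 4.97) to *Prkca* at 17.4 (14.2 to 21.1). Of 14 ganglion cell genes, 6 had a peak, a share of 42.9% near the background of 52.3%, from *Ebf1* at 3.83 (2.41 to 5.82) to *Rbpms* at 8.59 (5.99 to 11.96), and no gene of either list reached the median fold of 18.3. *Pou4f1*, *Pou4f2*, and *Pou4f3*, the ganglion cell POU factors, had none.

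Lists for other tissues had few peaks. None of 12 lens and cornea genes, none of 20 genes of tissues outside the eye, and none of 1134 olfactory receptor genes had a peak, and every gene of these 3 lists had a CpG-poor start, a class with a peak in 12.1% of all genes. Of 12 pigment epithelium and choroid genes, *Mitf* had a fold of 6.63 (4.54 to 9.37), and *Pmel*, which shares its peak with a second gene, had 11.3 (9.46 to 13.5). Of 15 vascular and microglial genes, 1 had a peak: *Kdr*, the receptor for vascular endothelial growth factor, which is also found in retinal progenitors, at 55.2 (49.9 to 60.8) over 5235 bp. Starts were CpG-poor in 10 of the 12 pigment epithelium and choroid genes and in 14 of the 15 vascular and microglial genes. The shares with a peak, 16.7% and 6.67%, thus stand beside the 12.1% of that class. All 15 housekeeping genes and all 36 genes of complex I of the respiratory chain had a peak, with median folds of 23.0 and 24.0.

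The large gene families ranged from no member with a peak to nearly all. Of 84 ribosomal protein genes, 81 had a peak, with a median fold of 38.1 and a median width of 1825 bp, and 62 of the 81 peaks were wider than the median of 1621 bp for all genes with a peak. Progenitor genes, with a similarly high median fold of 47.7, had a median width of 6522 bp. The 3 without a peak, *Rpl3l*, *Rpl10l*, and *Rpl39l*, are copies with expression known from muscle or testis. None of 39 *Hox* genes, which pattern the trunk, had a peak, although 24 of them had a CpG-rich start, as the *Hoxa4* sequence shows. Of 394 *Zfp* zinc finger genes, 316 had a peak, and *Zfp207* was highest at 94.95 and *Zfp608* widest at 8355 bp. Of 49 keratin genes, *Krt10* had a peak, at 8.35, and of 329 vomeronasal receptor genes, *Vmn1r4*, at 10.4. Of 57 clustered protocadherin genes, 3 had a peak, with *Pcdhgc3* highest at 15.1 (12.2 to 18.4). Starts were CpG-poor in 45 of the 49 keratin, 328 of the 329 vomeronasal receptor, and 53 of the 57 protocadherin genes. Of all genes with such a start, 12.1% had a peak.

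**Figure D5:**
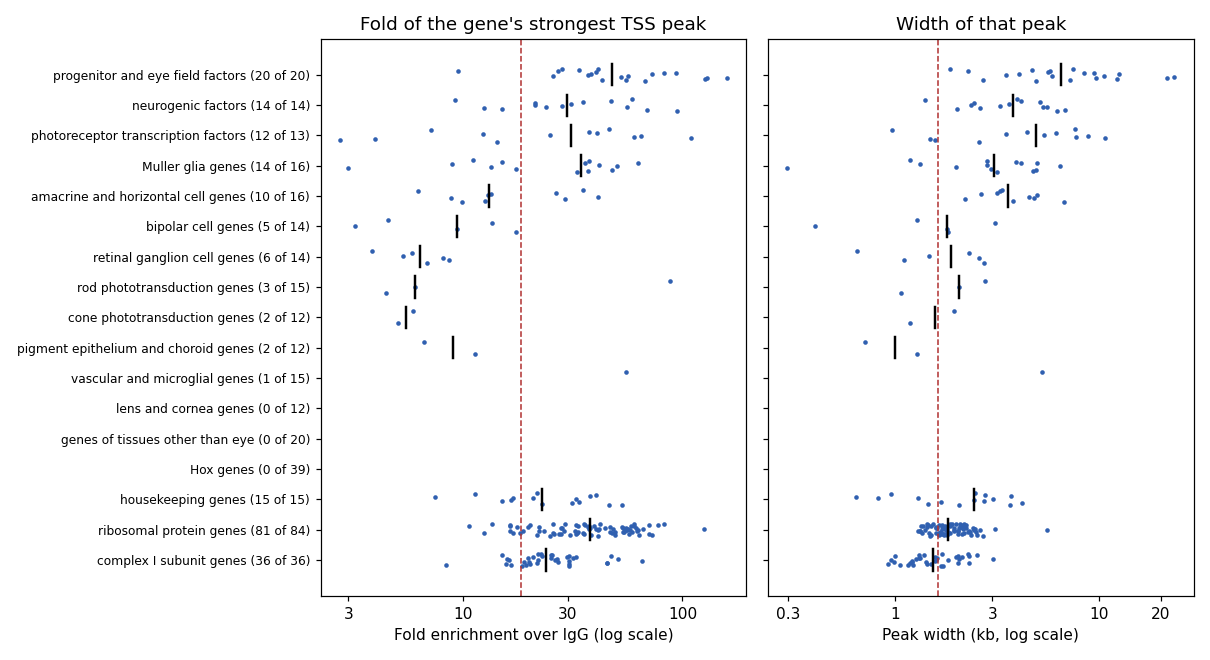
Each point is a gene with an H3K4me3 peak over a TSS, placed by the fold (left) and the width in kb (right) of its strongest such peak, on log axes, with the lists as rows and the number of genes with a peak in brackets. Black bars are list medians and the dashed red lines are the medians over all 11431 protein-coding genes with a peak, 18.3-fold and 1621 bp.

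The lists differed in how many of their peaks met H3K27ac and Otx2. Among all genes with a peak, 30.1% had H3K27ac and 87.2% Otx2 under it. H3K27ac was under 16 of the 20 progenitor genes, 10 of the 14 neurogenic genes, 9 of the 12 photoreceptor factors, and 10 of the 14 Müller glia genes with a peak. It was under 2 of the 10 amacrine and horizontal cell genes, *Gad2* and *Prox1*. None of the 5 bipolar and 6 ganglion cell genes had it. The 30.1% is not matched for width or fold. Median widths were 6522 bp for progenitor, 3796.5 bp for neurogenic, 4914 bp for photoreceptor factor, and 3560 bp for amacrine and horizontal cell peaks. H3K27ac met 50.02% of the widest of 5 equal groups of the list by width and 82% of the 100 widest peaks. Bipolar and ganglion cell peaks had median folds of 9.36 and 6.36. H3K27ac met 18.2% of the fold group from 4.92 to 10.2. Differences at equal width and fold were not tested. Otx2 was under 18 of the 20 progenitor genes, with *Foxn4* among the exceptions, and under 3 of the 6 ganglion cell genes. The share with Otx2 in the progenitor list was close to the background.

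Several genes of mature neurons had H3K4me1 or Otx2 but no H3K4me3 peak at their start. Among the 10422 genes without an H3K4me3 peak, 22.3% had an H3K4me1 peak over a TSS and 4.15% an Otx2 peak. Of the genes without an H3K4me3 peak, H3K4me1 was over 7 of 8 ganglion cell genes, including the *Pou4f* genes, and over 7 of 9 bipolar cell genes, such as *Grm6* and *Trpm1* of the ON pathway. It was over 7 of 12 rod and 7 of 10 cone phototransduction genes, over 6 of 10 pigment epithelium and choroid genes, 5 of 14 vascular and microglial genes, 12 of 39 *Hox* genes, and 2 of 20 genes of other tissues. Otx2 was over 5 of the 12 rod genes, *Cngb1*, *Gngt1*, *Grk1*, *Guca1a*, and *Sag*, and over 5 of the 10 cone genes, *Cnga3*, *Cngb3*, *Gnat2*, *Gngt2*, and *Kcnv2*. It was over 2 of 10 pigment epithelium and choroid genes, 1 of 9 bipolar cell genes, and none of 6 amacrine and horizontal cell genes. It was also over none of the 8 ganglion cell genes, a count close to the share of 4.15% among all such genes.

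Outside promoters, many of the strong peaks lay over tRNA genes. Of the 860 peaks over 5 kb from every annotated TSS, 33 (3.84%) covered a tRNA gene of RefSeq, but of the 84 such peaks with a fold of at least 10, 27 did. The distal tRNA peaks had a median fold of 16.2 and a median width of 1610 bp, against 3.89 and 387 bp for the other distal peaks. H3K27ac overlapped 12.1% of them and 34.3% of the others, and Otx2 93.9% and 64.1%. The strongest distal peak (chr13:21221519-21223577), with a fold of 43.9 (37.4 to 51.2), covered the tRNA-Ala gene printed above. In all, 142 of 403 tRNA genes (35.2%) lay under an H3K4me3 peak, and the B box letters GGTTCNA, searched on the gene's strand, were in 83.8% of these and in 87.0% of the rest.

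Among the 5 widest distal peaks, the first pair was mostly covered by H3K27ac. The widest, 4536 bp on chromosome 16 (chr16:75088989-75093524), lay 53709 bp from the nearest annotated TSS, that of Gm49676, with a fold of 31.9 (27.04 to 37.4), and H3K27ac and H3K4me1 each covered 100% of it. The next, 4065 bp (chr9:52145769-52149833) and 18278 bp from *Zc3h12c*, was covered by H3K27ac over 79.8% of its length. The third (chr3:96499416-96503457) was a cluster of tRNA genes and had no H3K27ac, nor had the one that ranks 5 (chr13:21166773-21170057), and H3K27ac covered 10.0% of the one that ranks 4 (chr15:85669762-85673240).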

How the data were processed

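CUT&RUN was performed on nuclei from snap-frozen retinas, and the peak list pools 2 H3K4me3 libraries against 2 IgG libraries of P2 mouse retina. According to the methods and the submitters' processing notes, the authors trimmed reads with cutadapt 3.5 and Trim Galore 0.6.4, aligned them to GRCm38 with Bowtie2, removed poorly mapped reads with SAMtools 1.12, and removed duplicates by position without molecular identifiers using UMI-tools, which can undercount dense fragments at strong summits. They merged technical replicates, called peaks with macs2 on paired fragments jointly across replicates against IgG at a q-value of 0.05, and removed mitochondrial and ENCODE blacklist regions. Each deposited peak holds a fold enrichment, a ratio of summit pileup to local IgG level made by the authors, and the authors' −log10 p-value and −log10 q-value, which were used as deposited. Library depth is unknown, and H3K27me3 and H3K9me3 were not analysed here.

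Fold is (pileup + 1)/(IgG level + 1) in macs2, so the whole-number pileup was solved from fold and −log10 p. This step was added after seeing the data. A solution within 0.01 of the deposited −log10 p was found for 100% of peaks, and the nearest other whole number missed by at least 0.0449. Overlap meant at least 1 bp. TSSs came from GENCODE M21, tRNA genes and microRNAs from RefSeq, and bases from GRCm38.p6. The CpG window was 250 bp on each side, merging joined gaps up to 500 bp, and a distal peak lay over 5000 bp from every TSS. A gene was given its peak of highest fold. Shares have 95% Wilson intervals, medians order-statistic intervals, and pileups exact Poisson intervals, all for counting error only. Intervals of folds were made from those of the pileups with the IgG level held fixed. The scripts ran in Python 3.11.15 and used pandas 2.3.3, scipy 1.17.1, and numpy 2.4.6. Plots were made in matplotlib 3.10.9. Overlap and merging were tested on simulated intervals against bedtools 2.31.1 with 0 differences, and the pileup step recovered 100% of 1991 simulated pileups.

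The peaks, gene lists, and alternatives were chosen with earlier results of these data known. The named genes are those under the 15 highest-fold peaks, the 15 widest, the 10 widest merged domains, and the 5 strongest and 5 widest distal peaks, and in each list the genes of highest fold and widest peak and, where they were 6 or fewer, those with or without a peak. Other genes named as examples, among them the further members of the retinal lists with values and *Tcf4*, were chosen after their values were seen. Alternatives were stricter limits on q, fold, and overlap, autosomes alone, merging, other TSS definitions, other CpG windows, other rankings, and, after seeing the data, a pileup of at least 20. Values of some list members are not reported here.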

Additional observations from a re-analysis of the deposited data

How the results depend on the processing

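No paired analysis was possible because both H3K4me3 libraries were pooled into 1 list, and for the same reason no replicate could be left out. Of 59 values recomputed under alternatives, 18 stayed within 1.5 times the count or within the interval of the main value and 41 moved. No difference was tested, so a move to the other side of a comparison could not be assessed. The order of the overlap shares did change with the top 4000 peaks of each other list, as given below. Of 11 values added after seeing the data, 9 moved. The list-wide values are ordered here as median fold, median width in bp, share over a protein-coding TSS, share of genes with a peak, shares with H3K27ac, H3K4me1, Otx2, and Neurod1, and share of CpG-rich summits. A −log10 q of at least 5 in both lists gave 15.5, 1459, 83.8%, 51.3%, 16.9%, 79.2%, 69.0%, 5.77%, and 76.5%. A fold of at least 5 gave 17.1, 1557, 89.2%, 49.4%, 31.4%, 89.4%, 87.2%, 8.68%, and 79.7%. A recovered pileup of at least 20, chosen after seeing the data, gave 15.7, 1475, 85.0%, 51.1%, 30.5%, 89.1%, 85.0%, 8.82%, and 77.3%. Merging peaks within 500 bp moved median fold to 14.1, median width to 1402, the TSS share to 79.3%, and the Otx2 share to 80.8%. Autosomes alone moved the gene share to 53.4%. The TSS share was 82.9% within 1000 bp, 80.7% for genes of any type, and 81.0% for summits within 1000 bp. The gene share was 55.5% for peaks within 1000 bp, 51.6% with basic transcripts, and 56.1% without receptor genes. With 250 bp of overlap, H3K27ac, H3K4me1, Otx2, and Neurod1 were met by 25.4%, 75.5%, 72.0%, and 5.79% of peaks, and with the top 4000 peaks of each other list by 4.72%, 3.36%, 17.3%, and 6.71%, so their order changed. CpG-rich summits were 64.6% with 100 bp on each side and 62.5% over the whole peak. With 500 peaks in place of 100, the strongest had a median width of 3028 bp and the widest a median fold of 39.9, against 3938 bp and 55.5. Summits under 20 fragments, 13.1% of the list, have the least certain folds.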

Other observations

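Peaks on the X chromosome held fewer fragments than those on autosomes at a similar fold. The 491 peaks on X had a median summit pileup of 53 fragments and a median IgG level of 2.78, against 85 and 4.92 for the 13574 autosomal peaks, while the median fold was 13.2 on X and 13.5 on autosomes. Otx2 overlapped 70.9% of the X peaks and 78.8% of the autosomal ones, and 55.8% and 71.6% had a CpG-rich summit. Of the protein-coding genes of X, 38.6% had a peak. Chromosome Y held 4 peaks, all over TSSs. They lay over *Kdm5d*, an H3K4 demethylase gene, with a fold of 23.8 (18.8 to 29.7), *Uty*, its counterpart for H3K27, with 22.0 (17.7 to 27.004), *Ddx3y*, an RNA helicase gene, with 21.6 (16.9 to 27.3), and *Eif2s3y*, a translation initiation gene, with 20.9 (16.5 to 26.1). Their pileups of 69 to 90 fragments were above the X median. The labels do not give the sex of the pooled pups, and the genes on Y were named after their values were seen.

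Noncoding genes carried the mark by type. Of processed transcripts in GENCODE, 38.4% had a peak over a TSS, of antisense genes 22.1%, of lincRNAs 7.04%, and of processed pseudogenes 0.221%. Of 1005 microRNA hairpins of RefSeq, 96 lay under an H3K4me3 peak.

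Promoters with and without a peak differed in their letters, but they also differed in CpG content. Of 10372 promoters with a peak, 9001 had a CpG-rich start, while of all CpG-poor starts 12.1% had a peak. In the 300 bases from 250 before the TSS to 50 after it, searched on both strands, the GC box GGGCGG was in 69.3% of promoters with a peak, 20.97% of those without, and 43.9% of all 21853. The ETS letters CCGGAA were in 30.2%, 6.55%, and 17.8%, and the cyclic AMP response letters TGACGTCA in 3.95%, 1.05%, and 2.43%. The TATA letters TATAAA went the other way, with 5.73%, 18.8%, and 12.6%, while CCAAT was in 39.6%, 38.2%, and 38.9%. None of these letter strings contains another. Within the promoters with a peak, the GC box was in 71.8% of the 1000 of highest fold and 70.9% of the 1000 of lowest fold, and CCGGAA in 24.9% and 16.6%. The Otx2 letters TAATCC were in 5.45% of promoters with a peak and 8.97% of those without, and the E box letters CAGATG in 10.0% and 19.6%. Neither of these strings holds a CpG, whereas the GC box, the ETS letters, and the cyclic AMP response letters each do. The strings were not compared within a CpG class, so a difference in letters beyond CpG content was not tested.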
